A study of Homo sapiens with 4 samples.

Results

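The genes described here were 10 components of the Notch pathway, taken by gene symbol from a list of receptors (NOTCH1, NOTCH2, NOTCH3), ligands (JAG1, JAG2, DLL1), nuclear factors (RBPJ, MAML1) and target genes (HES1, NRARP). All 10 were found among the 25133 rows with a gene symbol in each expression file. RNA sequencing had been done on MDA-MB-231, an established line from a triple-negative breast cancer. One group was infected with a lentivirus carrying a short hairpin RNA against JARID2 (shJARID2), and the other with a lentivirus carrying a scrambled hairpin (shSCR). There were 2 libraries in each group. JARID2 is an accessory subunit of the Polycomb repressive complex that methylates histone H3, and the comparison asks which transcripts changed when it was depleted. Each group represents 1 cell line and 1 hairpin label. Neither the hairpin sequences nor the time after infection is given in the sources used here. Nothing in the labels says that the libraries came from separate cultures, so a p-value reflects the spread among these 4 libraries only, which may be technical.

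Levels are FPKM, read fragments scaled to the length of the gene and the depth of the library. Low values came out as whole reads when this length was taken as the merged exons of all annotated transcripts. Comparisons of level between genes depend on that length, and are rough where annotated exons are not used in these cells. JARID2 itself had 3.88 and 3.91 FPKM in shJARID2 cells, against 10.8 and 10.8 FPKM in shSCR cells. Its mean level was 3.89 ± 0.0222 FPKM in shJARID2 cells and 10.8 ± 0.0611 FPKM in shSCR cells (SD, n = 2 each), a ratio of 0.36. In bulk RNA, fewer cells with a transcript and less of it in each cell cannot be told apart. The depth recovered from the spacing of low values was about 12800000 to 12900000 reads in shJARID2 libraries and 15500000 to 16200000 reads in shSCR libraries. Of the marker genes of this line, CD44, MSN, CAV1, PLAU and AXL were present in all 4 libraries, at 50.1 to 204.9 FPKM in shJARID2 cells and 30.1 to 417 FPKM in shSCR cells. CD44 differed little (77.8 and 79.7 FPKM in shJARID2 cells, 68.9 and 69.1 FPKM in shSCR cells), CAV1 was higher (204.9 and 185.6 FPKM in shJARID2 cells, 101.4 and 99.0 FPKM in shSCR cells), and AXL was lower (166.9 and 186 FPKM in shJARID2 cells, 392.5 and 417 FPKM in shSCR cells). VIM, a defining mesenchymal gene, was low, at 2.1 and 2.77 FPKM in shJARID2 cells and 3.54 and 4.2 FPKM in shSCR cells, and 24.4% of its exon bases lie in other annotated genes. The estrogen and progesterone receptor genes ESR1 and PGR, the epithelial cadherin CDH1 and the leukocyte gene PTPRC were no higher than 0.203 FPKM in any library. The other markers of luminal, endothelial or fibroblast cells, GATA3, ERBB3, PECAM1, COL1A1 and PDGFRB, lay between 0.142 and 0.837 FPKM. FOXA1, a luminal gene, had 1.86 and 1.94 FPKM in shJARID2 cells and 2.96 and 2.75 FPKM in shSCR cells, more than the other luminal genes named. It is not set against VIM, since the reads of VIM are uncertain where its exons lie in other genes. The part of these markers in the Notch results was not tested.

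Notch receptors are cell-surface proteins that are activated by ligands of the Jagged and Delta-like families on a neighbouring cell. Ligand binding exposes the receptor to an ADAM protease and then to gamma-secretase, which releases the intracellular domain. That domain enters the nucleus and forms a complex with the DNA-binding protein RBPJ and a Mastermind-like coactivator such as MAML1, and so turns on genes including HES1 and NRARP. Without the intracellular domain, RBPJ can sit on the same genes with corepressors. Jagged ligands and NOTCH1 are studied in triple-negative breast cancer as regulators of growth and stem-like cells.

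RBPJ binds the core sequence TGGGAA, and the promoters of the 2 target genes are shown because they differ in it. The windows are the 250 bases before the transcription start in RefSeq (GRCh38.p14), with TGGGAA in capitals where it stands on the gene's strand. The HES1 window lies on the plus strand at chr3:194135898-194136147, and the NRARP window on the minus strand at chr9:137302272-137302521.
HES1: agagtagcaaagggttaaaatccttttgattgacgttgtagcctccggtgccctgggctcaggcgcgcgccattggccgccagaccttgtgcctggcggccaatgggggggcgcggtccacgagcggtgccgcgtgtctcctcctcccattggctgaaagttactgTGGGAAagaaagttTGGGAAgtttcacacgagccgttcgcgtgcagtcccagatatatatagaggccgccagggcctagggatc
NRARP: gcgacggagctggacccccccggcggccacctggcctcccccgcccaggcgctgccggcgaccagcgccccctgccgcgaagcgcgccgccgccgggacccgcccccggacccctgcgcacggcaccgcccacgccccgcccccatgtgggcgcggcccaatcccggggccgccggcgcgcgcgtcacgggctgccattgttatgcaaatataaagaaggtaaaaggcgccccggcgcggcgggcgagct
The HES1 window held the 6 bases at 84 and 70 bases before the start, and had a GC content of 59.2%. The NRARP window held them on neither strand and had a GC content of 78.4%. Searched on both strands, 7321 of 35116 RefSeq windows of this length (20.8%) held TGGGAA at least once, and 1017 (2.9%) held it 2 or more times. Windows were available for 9 of the 10 genes, 13 windows in all, and 2 of the 13 held the motif, those of HES1 and of 1 of the 5 annotated RBPJ starts. A match is a description of the letters in the window, and no match says nothing of binding elsewhere.

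As measured, the 3 receptors, both Jagged ligands, MAML1 and NRARP had lower levels in shJARID2 cells and RBPJ a higher one, and of these NRARP had the largest relative difference. Of the 10 genes, 8 reached a mean of 1 FPKM over the 4 libraries and entered the test. In limma on log2(FPKM + 1), called at a Benjamini-Hochberg adjusted p below 0.05 over 12455 genes, RBPJ rose and NOTCH1, NOTCH3, JAG2, MAML1 and NRARP fell. NOTCH2 and JAG1 were not called, and DLL1 and HES1 were too low to test. In this comparison 59.7% of all tested genes were called, 28.0% higher and 31.6% lower in shJARID2 cells, so 6 calls among 8 genes lie near the background. The median log2 fold change was -0.41 for the 8 genes and -0.018 for all tested genes. JAG2 and NRARP passed the filter on low values only through the shSCR libraries, so a lower level in shJARID2 cells was partly built into their entry to the test. Both shJARID2 libraries lay below both shSCR libraries for 7 of the 10 genes and above them for 2, RBPJ and DLL1, where DLL1 rests on single reads. Among all tested genes the groups did not overlap for 82.9% (43.1% below and 39.8% above).

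**Figure D1:**
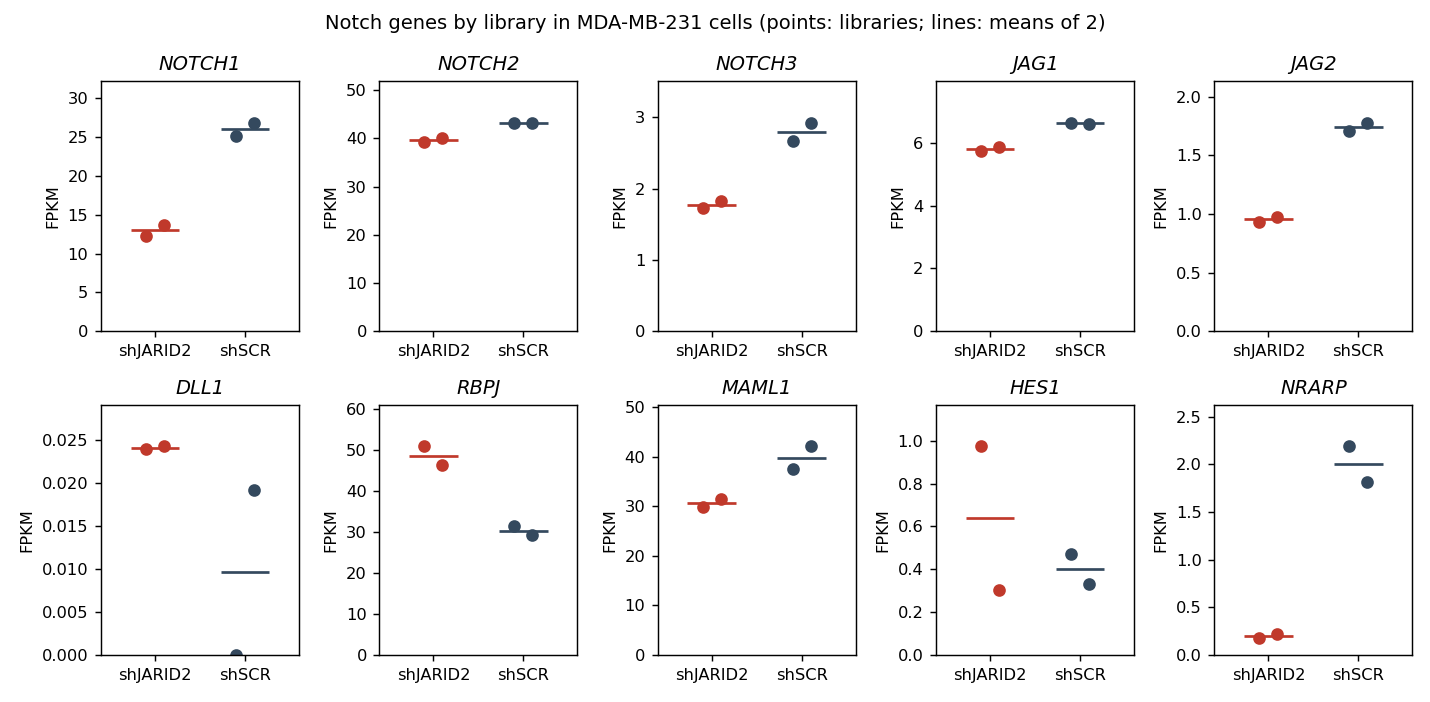
FPKM of the 10 Notch genes in each library, with shJARID2 on the left and shSCR on the right of each panel; points are libraries and lines the means of 2. The groups overlap for HES1, while RBPJ lies higher in shJARID2 cells (46.3 and 50.9 FPKM, against 29.2 and 31.5 FPKM in shSCR cells) and NRARP lower.

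Fold changes across the genome followed the GC content of the transcripts. Across 12067 tested genes with an annotated GC content, Spearman's rho between the log2 fold change and GC was -0.67. This describes 1 pair of groups, and the genes share their libraries. The median log2 fold change was 0.46 in the tenth of genes with the lowest GC and -0.80 in the tenth with the highest. Each Notch gene is therefore given also after a smooth curve of GC had been subtracted from each library (loess). This was done on log2(FPKM + 1) and, chosen after seeing the data because a pseudocount of 1 compresses low genes, on log2(FPKM + 0.1) and on the recovered reads with limma-voom. What produced the GC trend was not tested.

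**Figure D2:**
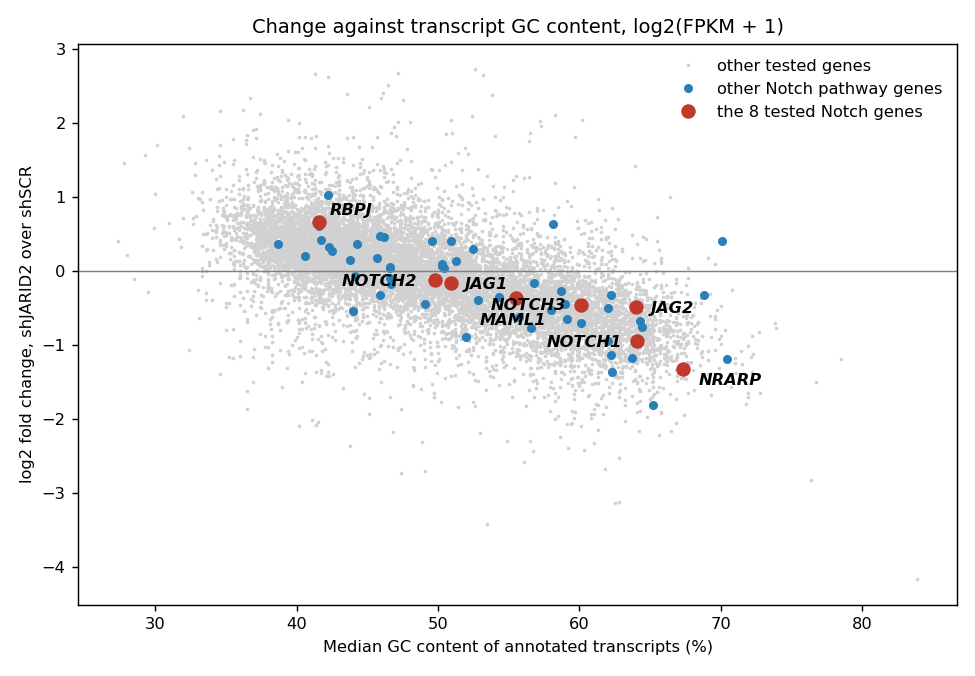
Log2 fold change of shJARID2 over shSCR on log2(FPKM + 1) against the median GC content of each gene's annotated transcripts; red points are the 8 tested Notch genes, blue points other tested pathway genes and grey points all other tested genes. RBPJ sits among genes of low GC at the upper left (GC 41.6%, fold change 0.66) and NRARP at the lower right (GC 67.3%, fold change -1.32).

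Among the receptors, NOTCH1 showed the largest difference as measured. NOTCH1 (gene ID 4851; GRCh38 chromosome 9, 136494433 to 136545786, minus strand) encodes the receptor most often found activated by mutation in T-cell leukaemia. It had 12.3 and 13.7 FPKM in shJARID2 cells, against 25.2 and 26.8 FPKM in shSCR cells. The groups lay far apart, with means of 13.0 ± 1.03 FPKM in shJARID2 cells and 26.0 ± 1.2 FPKM in shSCR cells (SD, n = 2 each). On the log2 scale the difference was -0.95 (SE 0.0736, adjusted p = 0.0016). NOTCH1 transcripts have a GC content of 64.1%, and the median log2 fold change of the 394 tested genes within 1 percentage point of it was -0.80. After GC correction the NOTCH1 value was -0.16 on log2(FPKM + 1) (adjusted p = 0.0387), -0.020 on log2(FPKM + 0.1) (adjusted p = 0.722) and -0.001 on the reads (adjusted p = 0.989).

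NOTCH2 (gene ID 4853; GRCh38 chromosome 1, 119911553 to 120069626, minus strand) encodes the receptor with the highest level in both groups. It had 39.2 and 40.0 FPKM in shJARID2 cells, against 43.2 and 43.2 FPKM in shSCR cells. The groups did not overlap, but the log2 fold change of -0.12 (SE 0.0397, adjusted p = 0.0539) was not called, and it was -0.077 after GC correction (adjusted p = 0.125). On the recovered reads without GC correction it was called (-0.11, adjusted p = 0.0379). Of the 50-base stretches of NOTCH2 transcripts, 23.4% occur also in other genes, chiefly the partial copy NOTCH2NL, whose current symbol is NOTCH2NLA. Reads from the copies may therefore have been divided between them in counting. NOTCH2NL had 3.97 and 4.13 FPKM in shJARID2 cells, against 2.98 and 2.61 FPKM in shSCR cells. Its log2 fold change was 0.41 (adjusted p = 0.0194) and 0.45 after GC correction, where it was also called, with 73.7% of its 50-base stretches shared. Its call ended with no filter on low values (adjusted p = 0.0502) and when any 1 library was left out, with adjusted p of 0.0512 without shSCR replicate 1, 0.106 without shSCR replicate 2, 0.0551 without shJARID2 replicate 1 and 0.0675 without shJARID2 replicate 2.

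NOTCH3 (gene ID 4854; GRCh38 chromosome 19, 15159038 to 15200981, minus strand) encodes a receptor best known from vascular smooth muscle. It had 1.73 and 1.83 FPKM in shJARID2 cells, against 2.67 and 2.93 FPKM in shSCR cells. The 2 groups did not overlap, and NOTCH3 was called lower at -0.45 on the log2 scale (SE 0.0993, adjusted p = 0.0183). The call ended without shSCR replicate 1 (adjusted p = 0.0677), without shSCR replicate 2 (0.110) and without shJARID2 replicate 1 (0.0599), and with no filter on low values (0.0511). After GC correction the sign turned, to 0.15 (adjusted p = 0.227). NOTCH4, the remaining receptor gene, was below the filter, at 0.0951 and 0.184 FPKM in shJARID2 cells and 0.159 and 0.291 FPKM in shSCR cells, with overlapping groups.

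JAG1 had a higher level than JAG2 and DLL1 in both groups. JAG1 (gene ID 182; GRCh38 chromosome 20, 10637684 to 10673999, minus strand), whose loss causes Alagille syndrome, had 5.72 and 5.86 FPKM in shJARID2 cells, against 6.63 and 6.59 FPKM in shSCR cells. The groups did not overlap, but the log2 fold change of -0.17 (SE 0.0616, adjusted p = 0.0782) was not called. It was -0.069 after GC correction (adjusted p = 0.366).

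JAG2 (gene ID 3714; GRCh38 chromosome 14, 105140981 to 105168824, minus strand) encodes the second Jagged ligand. It had 0.929 and 0.977 FPKM in shJARID2 cells, from 77 and 80 recovered reads, against 1.71 and 1.78 FPKM in shSCR cells, from 169 and 184 reads. The 2 groups lay apart, and JAG2 was called lower at -0.49 on the log2 scale (SE 0.115, adjusted p = 0.0223). The call ended when any 1 of the 4 libraries was left out, with adjusted p of 0.0883 without shSCR replicate 1, 0.106 without shSCR replicate 2, 0.0657 without shJARID2 replicate 1 and 0.0503 without shJARID2 replicate 2. After GC correction the value was 0.30 (adjusted p = 0.0913). JAG2 passed the filter on low values only through the shSCR libraries, so a lower level was partly built into its entry.

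DLL1 (gene ID 28514; GRCh38 chromosome 6, 170282206 to 170306565, minus strand), a Delta-like ligand, was at the edge of detection. It had 1 read in each shJARID2 library, and 0 reads in shSCR replicate 1 and 1 read in shSCR replicate 2. A count of 0 allows up to about 3 reads by a 1-sided 95% limit, and up to 3.69 by the 2-sided Poisson interval used below. In shSCR replicate 1, 3 reads would be 0.06 FPKM, so no fold is given. The related ligand genes DLL3 (0 and 8 reads in shJARID2 cells, 0 and 2 in shSCR cells) and DLL4 (6 and 2 reads in shJARID2 cells, 9 and 4 in shSCR cells) were likewise too low to compare. Recovered reads and their intervals cover counting error only.

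Of the nuclear factors, RBPJ rose and MAML1 fell as measured. RBPJ (gene ID 3516; GRCh38 chromosome 4, 26163455 to 26435131, plus strand) had 50.9 and 46.3 FPKM in shJARID2 cells, against 31.5 and 29.2 FPKM in shSCR cells. Both shJARID2 libraries lay above both shSCR libraries, with means of 48.6 ± 3.27 FPKM in shJARID2 cells and 30.4 ± 1.6 FPKM in shSCR cells (SD, n = 2 each), a ratio of 1.6. RBPJ was called higher, by 0.66 on the log2 scale (SE 0.0694, adjusted p = 0.00263), and it was between 0.59 and 0.73 when each library was left out. RBPJ transcripts have a GC content of 41.6%, and after GC correction the rise was 0.36 on log2(FPKM + 1) (adjusted p = 0.00912), 0.33 on log2(FPKM + 0.1) (adjusted p = 0.0144) and 0.32 on the reads (adjusted p = 3.74e-05). RBPJ has processed pseudogenes, but 0.8% of its 50-base stretches occur in other annotated genes.

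MAML1 (gene ID 9794; GRCh38 chromosome 5, 179732850 to 179777286, plus strand) had 29.9 and 31.5 FPKM in shJARID2 cells, against 37.5 and 42.1 FPKM in shSCR cells. The groups did not overlap, and MAML1 was called lower at -0.36 on the log2 scale (SE 0.0719, adjusted p = 0.0138). The call ended without shSCR replicate 2 (adjusted p = 0.055) and without shJARID2 replicate 1 (0.0548). After GC correction the value was 0 to 3 decimals (adjusted p = 0.995). Its paralogs MAML2 (-0.18, adjusted p = 0.0909) and MAML3 (-0.39, adjusted p = 0.0328) were -0.31 and -0.18 after GC correction, where MAML2 was called lower and MAML3 was not. As measured, the MAML3 call ended without any 1 of shSCR replicate 1 (adjusted p = 0.134), shSCR replicate 2 (0.132), shJARID2 replicate 1 (0.053) and shJARID2 replicate 2 (0.0923).

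The target genes were low, and NRARP fell while HES1 did not separate the groups. NRARP (gene ID 441478; GRCh38 chromosome 9, 137300482 to 137302251, minus strand) encodes a small ankyrin-repeat protein that binds the Notch nuclear complex and limits its activity. It had 0.174 and 0.221 FPKM in shJARID2 cells, against 2.19 and 1.81 FPKM in shSCR cells. These came from 4 reads (95% Poisson interval 1.09 to 10.2) and 5 reads (1.62 to 11.7) in shJARID2 cells, and from 60 reads (45.8 to 77.2) and 52 reads (38.8 to 68.2) in shSCR cells. No interval of one group touched one of the other. The means were 0.198 ± 0.0326 FPKM in shJARID2 cells and 2.0 ± 0.263 FPKM in shSCR cells (SD, n = 2 each), a ratio of 0.0987 and so 90.1% lower.

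On log2(FPKM + 1), which understates changes of low genes, NRARP was called lower at -1.32 (log2 fold change, SE 0.144, adjusted p = 0.00282), and it was -2.82 on log2(FPKM + 0.1) (adjusted p = 0.00574) and -3.18 on the reads (adjusted p = 3.64e-05). NRARP transcripts have a GC content of 67.3%, where 115 tested genes lie within 1 percentage point and their median log2 fold change was -0.89. GC correction ended the call on log2(FPKM + 1) (-0.40, adjusted p = 0.097). With the same correction NRARP was called lower on log2(FPKM + 0.1) (-1.65, adjusted p = 0.0277) and on the reads (-2.0, adjusted p = 0.00317). The corrected size thus depends on the scale. NRARP passed the filter on low values only through the shSCR libraries, so a lower level was partly built into its entry to these tests.

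HES1 (gene ID 3280; GRCh38 chromosome 3, 194136145 to 194138732, plus strand) encodes a basic helix-loop-helix repressor and is the most used readout of Notch activity. It had 0.974 and 0.303 FPKM in shJARID2 cells, against 0.469 and 0.33 FPKM in shSCR cells. The shJARID2 libraries fell on either side of both shSCR libraries. They held 26 reads (95% Poisson interval 17.0 to 38.1) and 8 reads (3.45 to 15.8), so the replicates of shJARID2 differed by more than counting error, while shSCR libraries held 15 and 11 reads. In the fit with no filter on low values HES1 gave 0.20 on the log2 scale (SE 0.242, adjusted p = 0.59). Of its relatives, HEY1, HEY2 and HES4 were also too low to test. HES6 and HEYL passed the filter and are given below with the genes listed as direct targets. HEY1 had 12 and 6 reads in shJARID2 cells against 22 and 25 in shSCR cells, HEY2 had 0 reads in all 4 libraries, and HES4 had none in shJARID2 cells and at most 1 in shSCR cells. By the 1-sided limit of 3 reads, the 0 counts of HEY2 allow up to 0.0855 FPKM in shJARID2 cells and up to 0.0706 FPKM in shSCR cells.

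**Figure D3:**
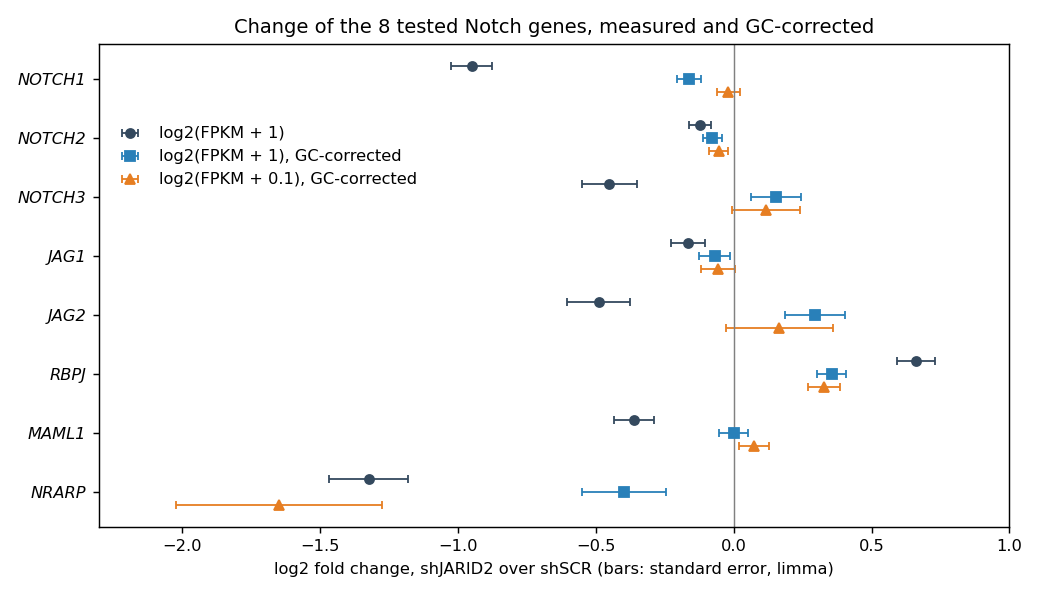
Log2 fold change of shJARID2 over shSCR for the 8 tested Notch genes, as measured on log2(FPKM + 1), and GC-corrected on log2(FPKM + 1) and on log2(FPKM + 0.1); bars are standard errors from limma. RBPJ stays above 0 on each scale (0.66, 0.36 and 0.33) and NRARP below it (-1.32, -0.40 and -1.65), whereas NOTCH3 and JAG2 change sign with the correction.

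With GC correction on log2(FPKM + 1), 1 of the 8 genes was called higher (RBPJ) and 1 lower (NOTCH1), where 44.2% of all genes were called, 22.7% higher and 21.5% lower. With transcript length corrected as well, 1 was called higher and 1 lower, against 44.4% of all genes (22.5% higher and 21.8% lower). The GC-corrected calls on log2(FPKM + 0.1) were RBPJ higher and NRARP lower, where 43.0% of all genes were called (23.0% higher and 20.0% lower). They were the same 2 genes on the reads, where 53.1% were called (27.9% higher and 25.2% lower). Of the 6 genes called as measured, 2 were called in the same direction after GC correction on log2(FPKM + 1) and 4 were not called. The median corrected log2 fold change of the 8 genes was -0.034.

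The order of the levels, taken as measured and without GC correction, differed between the groups. Tested genes within 1 percentage point of the GC content of RBPJ had a median log2 fold change of 0.316, and those near MAML1 one of -0.362. The part of the GC trend in the order was not tested. In shJARID2 cells RBPJ was highest, followed by NOTCH2 (39.6 FPKM), MAML1 (30.7 FPKM), NOTCH1 (13.0 FPKM) and JAG1 (5.79 FPKM). NOTCH3 (1.78 FPKM) came next, then JAG2 (0.953 FPKM) and HES1 (0.638 FPKM), whose libraries overlapped, and then NRARP and DLL1. In shSCR cells NOTCH2 was highest (43.2 FPKM), followed by MAML1 (39.8 FPKM), RBPJ (30.4 FPKM), NOTCH1 (26.0 FPKM) and JAG1 (6.61 FPKM). NOTCH3 (2.8 FPKM), NRARP (2.0 FPKM), JAG2 (1.74 FPKM), HES1 (0.399 FPKM) and DLL1 followed, and no neighbours overlapped there.

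Ratios within a library compare members free of any factor that scales a whole library, but not free of GC content. Tested genes of like GC content had a median log2 fold change of -0.034 for NOTCH2 and -0.796 for NOTCH1. The medians were -0.084 for JAG1, -0.795 for JAG2 and -0.891 for NRARP. The part of the GC trend in the ratios was not tested. The ratio of NOTCH2 to NOTCH1 was 3.19 and 2.92 in shJARID2 cells, against 1.72 and 1.61 in shSCR cells. NOTCH1 made up 23.1% and 24.7% of the summed FPKM of the 3 receptors in shJARID2 cells, against 35.4% and 36.8% in shSCR cells. The sum itself was 53.2 and 55.6 FPKM in shJARID2 cells and 71.0 and 73.0 FPKM in shSCR cells. The ratio of JAG1 to JAG2 was 6.16 and 6.0 in shJARID2 cells, against 3.89 and 3.71 in shSCR cells. RBPJ exceeded MAML1 in shJARID2 cells, with ratios of 1.7 and 1.47, and lay below it in shSCR cells, with 0.84 and 0.694. The ratio of NOTCH1 to NRARP was 70.3 and 62.2 in shJARID2 cells, against 11.5 and 14.8 in shSCR cells. None of these groups overlapped. The 2-sided exact permutation test gave p = 0.333 for each of the 7 ratios computed, and the same after Benjamini-Hochberg adjustment. That is the smallest value that 2 libraries against 2 allow, so the test cannot decide whether a ratio differed. Each gene in these pairs already separated the groups, as 82.9% of all tested genes did, so the separation of the ratios is no added support. Its share among other gene pairs was not computed. JAG2 and NRARP also passed the filter on low values only through the shSCR libraries.

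**Figure D4:**
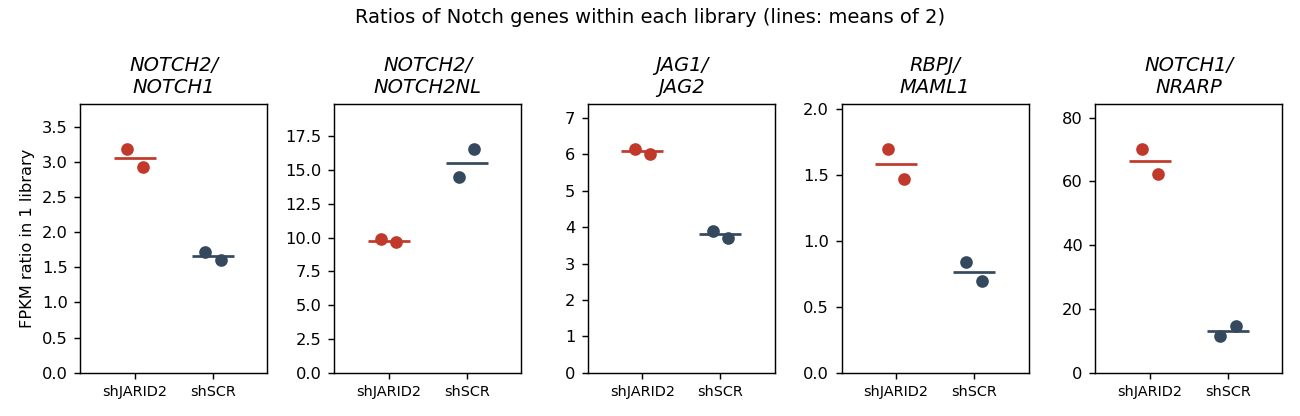
FPKM ratios of pairs of genes within each library, with shJARID2 on the left and shSCR on the right of each panel; points are libraries and lines the means of 2. The ratio of NOTCH2 to NOTCH2NL is lower in shJARID2 cells (9.88 and 9.69, against 14.5 and 16.6 in shSCR cells), and the other 4 ratios shown are higher. The ratios are not corrected for GC content.

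The wider pathway held calls in both directions, as all tested genes did. Of 70 further pathway genes listed by role, 51 were tested, and 15 rose and 22 fell, with 14 not called and a median log2 fold change of -0.16, where 28.0% of all tested genes were called higher and 31.6% lower. After GC correction 14 were higher and 13 lower, against 22.7% and 21.5% of all genes, and the median was -0.023. These shares, 59.7% in all as measured, are the background for each role list below. Of the 37 called as measured, 18 were called in the same direction after GC correction, 17 were not called, and 2, CTBP1 and MYC, were called in the opposite direction. MIB1 and NUMBL were also called in opposite directions as measured and after GC correction on log2(FPKM + 0.1) and on the reads. The 8 role lists include the members that play the role. Like JAG2 and NRARP, the genes NEURL1B and HEYL, and NEURL1 and MIB2, which are named for this after their values were seen, passed the filter on low values only through the shSCR libraries. A lower level in shJARID2 cells was thus partly built into their entry. The falls of JAG2, NRARP, NEURL1B and HEYL give the lists no support.

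Of the proteins that cut the receptor, 4 of 8 tested genes rose and 3 fell, where 59.7% of all tested genes were called. ADAM10, the protease that makes the ligand-induced cut, had 17.2 and 16.5 FPKM in shJARID2 cells, against 10.9 and 10.6 FPKM in shSCR cells. Its log2 fold change was 0.60 (adjusted p = 0.00186) and 0.30 after GC correction. NCSTN, the gamma-secretase subunit nicastrin, rose by 0.41 (adjusted p = 0.00315), and by 0.51 after GC correction. Both were called after GC correction, as were the falls of PSENEN, another gamma-secretase subunit (-0.76, GC-corrected -0.34), and of FURIN, which cuts the receptor on its way to the surface (-0.95, GC-corrected -0.25). The calls of ADAM17 (0.27, GC-corrected -0.023), APH1B (0.47, GC-corrected 0.31) and PSEN2 (-0.61, GC-corrected -0.24) ended with the correction on log2(FPKM + 1). With GC correction on the reads, APH1B was called higher (0.473, adjusted p = 0.01) and FURIN was not called (-0.206, adjusted p = 0.0671). PSENEN has 56.5% of its exon bases in other annotated genes, so its reads are uncertain. As measured, the ADAM17 call ended without shSCR replicate 2 (adjusted p = 0.0671), and the APH1B call without shSCR replicate 1 (0.138), shSCR replicate 2 (0.0739) or shJARID2 replicate 1 (0.112).

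Of the genes that add sugars to the receptor, POGLUT1 rose (0.47, GC-corrected 0.30 and called). The fringe genes RFNG (-0.75) and LFNG (-0.44), whose products tune the choice of ligand, fell, and were 0.046 and 0.11 after correction, not called. Of 11 tested genes of ubiquitination and endocytosis, 2 rose, ITCH (0.33, GC-corrected 0.037) and MIB1 (0.21, GC-corrected -0.13), and 3 fell. Those were NEURL1B (-1.19, GC-corrected -0.048), DTX2 (-1.13, GC-corrected -0.42) and NUMBL (-0.68, GC-corrected 0.12), of which DTX2 was called lower after GC correction. For NEURL1B the corrected value depended on the scale. It was -0.342 on log2(FPKM + 0.1), not called (adjusted p = 0.186), and -0.44 on the reads, called lower (adjusted p = 0.0395). Of the DTX2 50-base stretches, 26.8% occur in other genes. The row with symbol NUMB, counted among the 11 and not called, carries gene ID 101928143. RefSeq gives that ID to another gene, so what the row measures is uncertain. As measured, the ITCH call ended without shSCR replicate 2 (adjusted p = 0.0683), the LFNG call without shSCR replicate 1 (0.0883), shSCR replicate 2 (0.190) or shJARID2 replicate 1 (0.113), and the MIB1 call without any 1 of shSCR replicate 1 (0.0679), shSCR replicate 2 (0.159), shJARID2 replicate 1 (0.104) and shJARID2 replicate 2 (0.0753). Among the ligands, DLK2, a membrane protein related to the Delta-like family, fell, with 2.11 and 2.13 FPKM in shJARID2 cells, against 6.84 and 7.16 FPKM in shSCR cells (log2 fold change -1.36, adjusted p = 0.0014, GC-corrected -0.65 and called).

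Of 9 genes of the nuclear complex and its coactivators, RBPJ and KAT2B rose and 5 fell. The acetyltransferase gene CREBBP fell by 0.45 on the log2 scale (adjusted p = 0.00426), and by 0.43 after GC correction, where it was called. KAT2A (-0.53, GC-corrected -0.028) and KAT2B (0.36, GC-corrected 0.15) were not called after the correction. Of 12 tested corepressor genes 3 rose and 5 fell, again with 59.7% of all tested genes called. SPEN, which binds RBPJ and recruits corepressors, had 15.7 and 17.2 FPKM in shJARID2 cells, against 24.4 and 24.4 FPKM in shSCR cells (-0.54, adjusted p = 0.00295, GC-corrected -0.77 and called). TLE3 (-0.71, GC-corrected -0.10) lost its call, and CTBP1 (-0.50, GC-corrected 0.20) was called in opposite directions. FHL1 (0.30, GC-corrected 0.49), L3MBTL3 (0.42, GC-corrected 0.12) and CIR1 (0.37, GC-corrected -0.035) rose as measured, and FHL1 was called after correction. As measured, the calls of FHL1 (adjusted p = 0.0603), L3MBTL3 (0.104) and KAT2B (0.0515) ended without shSCR replicate 1, and those of FHL1 (0.0693), L3MBTL3 (0.116) and KAT2B (0.0969) without shSCR replicate 2. The KAT2B call ended also without shJARID2 replicate 1 (0.0607) and the L3MBTL3 call without shJARID2 replicate 2 (0.0841).

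Of 18 genes listed as direct targets, NRARP and NOTCH3 included, 9 were tested. Of these 3 rose and 6 fell, where 28.0% of all tested genes were called higher and 31.6% lower. The 6 include NRARP and HEYL, which passed the filter on low values only through the shSCR libraries and give the list no support. Whether Notch controls the listed genes in these cells, HES6, ID1 and BHLHE40 among them, was not tested. After GC correction 4 were higher and 2 lower, where 22.7% of all genes were higher and 21.5% lower. SNAI2, an inducer of mesenchymal traits, had 4.13 and 4.24 FPKM in shJARID2 cells, against 1.79 and 1.34 FPKM in shSCR cells (1.02, adjusted p = 0.00346, GC-corrected 0.72). ID1, which blocks basic helix-loop-helix factors, had 35.6 and 28.8 FPKM in shJARID2 cells, against 19.8 and 20.6 FPKM in shSCR cells (0.64, adjusted p = 0.00904, GC-corrected 1.14). CCND1, which encodes cyclin D1, had 80.3 and 84.9 FPKM in shJARID2 cells, against 187.6 and 186.9 FPKM in shSCR cells (-1.17, adjusted p = 0.0014, GC-corrected -0.40). BHLHE40, a circadian repressor, fell (-0.89, GC-corrected -0.73), and these 4 genes were called after GC correction. HES6 rose, with 60 and 50 reads in shJARID2 cells, against 39 and 47 in shSCR cells (0.41, GC-corrected 1.52), with only 24 tested genes within 1 percentage point of its GC content of 70.1%. HEYL, a relative of HES1, had 0.675 and 1.2 FPKM in shJARID2 cells, against 1.75 and 2.31 FPKM in shSCR cells (-0.65, adjusted p = 0.0435), was -0.096 after GC correction, and also lost its call with a pseudocount of 0.1. As measured, the calls of HES6 and HEYL ended without shSCR replicate 1 (adjusted p = 0.175 and 0.0777), shSCR replicate 2 (0.109 and 0.179) or shJARID2 replicate 1 (0.154 and 0.116), and that of HES6 also without shJARID2 replicate 2 (0.0574). MYC, named after its values were seen, was -0.26 as measured and 0.27 after GC correction, called in both.

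**Figure D5:**
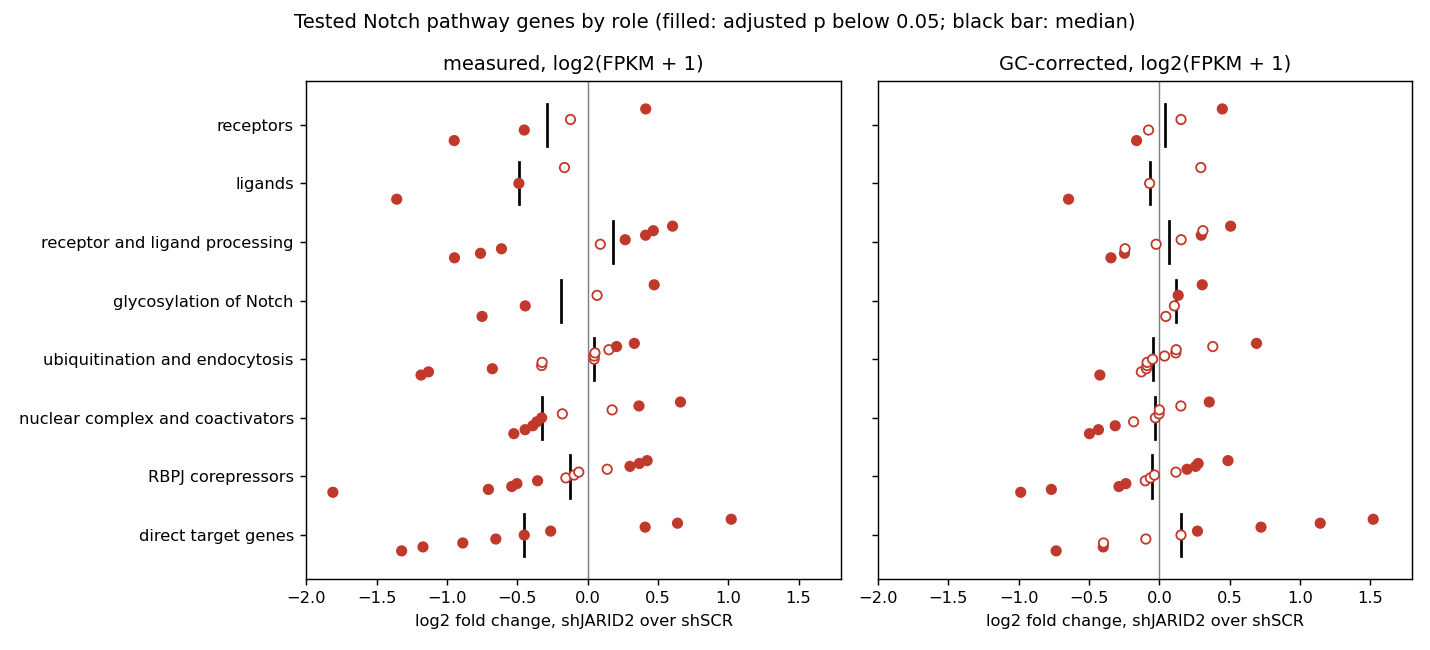
Log2 fold change of shJARID2 over shSCR for tested Notch pathway genes, members included, by role, as measured on the left and GC-corrected on the right; points are genes, filled where the adjusted p was below 0.05, and black bars are medians. The median of the genes listed as direct targets is -0.45 as measured and 0.15 after GC correction. NRARP and HEYL, which passed the filter on low values only through the shSCR libraries, are among them.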

How the data were processed

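RNA of 4 MDA-MB-231 libraries, 2 shJARID2 and 2 shSCR, was sequenced. The authors deposited FPKM per gene with gene ID and symbol, per the file headers. Trimmomatic, HISAT2, SAMtools and featureCounts are named, without versions, per the submitters' processing notes. Of the genome build, annotation, strand setting and treatment of reads with several matches, none is given in the sources used here. The 60420 of 85553 rows without a symbol took 24.0% and 24.5% of the FPKM of shJARID2 libraries and 21.4% and 21.1% of shSCR libraries, and were left out.

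Rows with a mean of at least 1 FPKM were fitted on log2(FPKM + 1) with limma 3.58.1 (trend, R 4.3.3), with the group as the only term, Benjamini-Hochberg adjustment over 12455 genes and calls at an adjusted p below 0.05. GC content, exon length, exon overlap and shared 50-base stretches came from GENCODE 29 (GRCh38). Low FPKM times exon length gave whole multiples of 1 read for 96.0% to 96.3% of values up to 20 reads (within 0.05), which gave reads per gene and library depth. GC was corrected by loess (span 0.3, degree 2) in each library.

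The genes and role lists were chosen with earlier results of these data known. Named were JARID2, the 10 genes, their paralogs and core enzymes, and of each role list up to 4 called genes with the largest change in each direction. Some genes that the lists count are not reported here. Alternatives were another pseudocount, filter and scaling, GC and length correction, limma-voom, the replicate number as a block and leaving out each library.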

Additional observations from a re-analysis of the deposited data

How the results depend on the processing

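RBPJ was called higher under all 16 alternatives tried. As measured, 5 Notch genes were called lower, JAG2 and NRARP among them, which passed the filter on low values only through the shSCR libraries. The count became 1 with GC correction, 1 with GC and length correction, 1 with GC correction on log2(FPKM + 0.1) and 1 with GC correction on the reads. It was 0 with the replicate block and GC correction, where NOTCH1 missed the threshold (adjusted p = 0.0560). Leaving out 1 library gave 2 to 4. Of the other pathway genes, 22 were called lower as measured, against 13 with GC correction, 13 with GC and length correction, 13 with the replicate block and GC correction, 14 with GC correction on log2(FPKM + 0.1) and 14 with it on the reads. Pathway genes called higher numbered 6 to 11 when 1 library was left out (6 without shSCR replicate 2, 8 without shSCR replicate 1), against 15. Over all genes, 3941 were called lower as measured, against 2591 with GC correction, 2408 with it on log2(FPKM + 0.1), 2333 with the replicate block and GC correction and 2462 to 3763 when 1 library was left out. Genes called higher numbered 2168 to 3068 when 1 library was left out, against 3493.

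Of the 45 tested genes that the naming rule covers, signs turned only with GC correction. In the order GC, GC and length, replicate block with GC, GC on log2(FPKM + 0.1) and GC on the reads, the log2 fold changes were 0.154, 0.158, 0.154, 0.118 and 0.104 for NOTCH3; 0.295, 0.296, 0.295, 0.166 and 0.133 for JAG2; -0.023, -0.015, -0.023, -0.055 and -0.060 for ADAM17; 0.046, 0.043, 0.046, 0.121 and 0.132 for RFNG. They were 0.107, 0.102, 0.107, 0.127 and 0.126 for LFNG, -0.128, -0.122, -0.128, -0.164 and -0.175 for MIB1, and 0.117, 0.113, 0.117, 0.252 and 0.271 for NUMBL. They were -0.035, -0.048, -0.035, -0.076 and -0.085 for CIR1, and 0.197, 0.203, 0.197, 0.316 and 0.329 for CTBP1. MAML1 gave 0, -0.004, 0, 0.073 and 0.078, KAT2A gave 0.053 and 0.063 on the last 2 scales, and ITCH gave -0.001 on the reads. On the last 2 scales MIB1 (adjusted p = 0.0452 and 0.0107) and NUMBL (0.0335 and 0.00489) were called in the new direction. The cause was not tested.

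The replicate numbers were shared by the groups, and the replicate differences correlated at 0.0291 between them. So low a value cannot show whether libraries of the same number were handled together, and the labels do not say. With the replicate block, 3379 genes were called higher and 3831 lower, and 5 Notch genes were lower. Among the named genes the block ended the calls of MAML3 (adjusted p = 0.0591), APH1B (0.0614) and HES6 (0.0828), and the block with GC correction ended the GC-corrected calls of POGLUT1 (0.0533) and CTBP1 (0.0593). At 2 libraries a group and 12800000 to 16200000 reads, DLL1 and HES1 could not be compared.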
